A study of Homo sapiens with 12 samples.

Results

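Human mitochondrial DNA (mtDNA) is a small circle whose mRNAs code for subunits of respiratory complexes I, III and IV and of the ATP synthase. Everything else that copies, transcribes and matures this genome is encoded in the nucleus. The listed genes were the 15 mtDNA transcripts that are mRNAs or ribosomal RNAs and 21 nuclear factors for mtDNA replication, transcription and RNA stability, 36 genes in all, a list of names to which no threshold on measured values applied. Of these, 34 matched an identifier among the 28747 of the count table by their Ensembl number, namely 13 mRNAs of mtDNA and all 21 nuclear factors, and all 34 passed the filter on low counts in every comparison. The ribosomal RNAs MT-RNR1 and MT-RNR2 were not analysed here.

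The libraries came from DU145, an established human prostate cancer line that grows without androgen, in 4 groups of 3 replicates. Stable lines made by lentiviral infection and puromycin selection carried a knockdown hairpin (shSigma) or a control hairpin (shCtrl). Each line was grown as adherent cells, kept in RPMI with serum, or as anchorage-independent tumor spheres, which the study grew in DMEM-F12 with B-27, insulin, FGF2 and EGF, so attachment and medium differed together and cannot be told apart. The study worked with more than 1 knockdown hairpin and did not state which one the sequenced cells carried, so an effect of the knockdown and one of a single hairpin or line cannot be told apart. The replicates were described as independent, and p-values measure the spread between these libraries.

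Library totals ran from 16472722 to 26957777 counts. No replicate pair agreed within counting noise: chi-square per gene ran from 2.63 to 41.5, against about 1 for noise alone. The epithelial markers KRT8, KRT18 and KRT19 were present in all groups, with mean KRT18 at 289 to 502 CPM (counts scaled to the TMM-adjusted library total), KRT5 had at most 1 count in a library, and KLK3 had at most 2 counts. All 5 tested epithelial markers moved with the knockdown in adherent cells, KRT8, KRT18 and KRT19 higher (log2 fold changes of 0.76, 0.58 and 1.91) and EPCAM and CDH1 lower (-2.99 and -1.23). In spheres 4 of the 5 were called lower, CDH1 from a mean of 727 to 27.8 CPM, and KRT19 was not called, and the part of such a shift between the lines in the results was not tested. Leukocyte markers had at most 4 counts and DCN at most 3 in any library, while COL1A1 had means of 4.52 to 22.7 CPM. The libraries differed in how GC-rich genes stood against GC-poor ones, given here as a log2 index. In spheres the index ran from 0.02 to 0.33 in shCtrl and from 0.35 to 0.56 in shSigma. The sphere groups thus did not overlap in it, and it moved together with the knockdown there. Adherent shCtrl replicate 1 stood at -0.995, adherent shSigma replicate 3 at -0.64 and adherent shCtrl replicate 2 at -0.55. The biological coefficient of variation was 14.4% in the adherent and 6.89% in the sphere comparison, so the sphere comparison could resolve smaller differences.

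In human mitochondria both strands are transcribed as long precursors from promoters in the noncoding control region. POLRMT, the mitochondrial RNA polymerase, starts there together with TFAM, which bends and packages mtDNA, and TFB2M, which opens the promoter. The heavy-strand precursor yields all mRNAs but MT-ND6, which lies alone on the other strand. The mRNAs are released mainly by excision of the transfer RNAs between them, and most are then given a poly(A) tail. The stretch of control region before the first transfer RNA gene, MT-TF, is shown because every heavy-strand transcript described here starts near it. It comes from the reference mtDNA of build hg38, on the plus strand.
Control region, chrM:377-576: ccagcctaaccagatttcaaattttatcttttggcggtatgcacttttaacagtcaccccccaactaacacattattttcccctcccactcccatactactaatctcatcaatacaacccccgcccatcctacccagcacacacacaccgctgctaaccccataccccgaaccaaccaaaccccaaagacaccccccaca

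The 3′ ends of the 13 mRNAs are shown because the libraries were labelled as polyA RNA, and for several of these genes the poly(A) tail also completes the stop codon. Each line gives the gene's coordinates in GENCODE release 44 on hg38 and its last 18 bases, 5′ to 3′ on the coding strand. Capitals mark the last codon where the gene's length is a multiple of 3 bases, or else the bases left over.
MT-ND1, chrM:3307-4262, plus strand: cattccccctcaaaccTA
MT-ND2, chrM:4470-5511, plus strand: ttatactaataatcttaT
MT-CO1, chrM:5904-7445, plus strand: gtatacataaaatctAGA
MT-CO2, chrM:7586-8269, plus strand: cccgtatttaccctaTAG
MT-ATP8, chrM:8366-8572, plus strand: ttgcccccacaatccTAG
MT-ATP6, chrM:8527-9207, plus strand: ctgcacgacaacacaTAA
MT-CO3, chrM:9207-9990, plus strand: tctattgatgagggtctT
MT-ND3, chrM:10059-10404, plus strand: gattagactgaaccgaaT
MT-ND4L, chrM:10470-10766, plus strand: aacctactccaatgcTAA
MT-ND4, chrM:10760-12137, plus strand: ttaccgggttttcctctT
MT-ND5, chrM:12337-14148, plus strand: ctactcctaatcacaTAA
MT-ND6, chrM:14149-14673, minus strand: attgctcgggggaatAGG
MT-CYB, chrM:14747-15887, plus strand: aaatactcaaatgggccT
Lengths of 7 genes were whole multiples of 3 bases, and 6 genes, namely MT-ND1, MT-ND2, MT-CO3, MT-ND3, MT-ND4 and MT-CYB, ended in a bare T or TA. Both kinds occurred among the mRNAs that rose with the knockdown in spheres.

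Neighbouring genes on mtDNA can share bases, and those reads cannot be given to 1 gene with certainty. MT-ATP8 and MT-ATP6, both ATP synthase subunits, share 46 bases, which are 22.2% of MT-ATP8, and MT-ND4L and MT-ND4, both complex I subunits, share 7 bases. Each pair is carried on 1 transcript, so its members are not separate observations of RNA abundance. Capitals mark the shared bases, with 12 bases of each neighbour in lower case.
MT-ATP8/MT-ATP6, chrM:8515-8584: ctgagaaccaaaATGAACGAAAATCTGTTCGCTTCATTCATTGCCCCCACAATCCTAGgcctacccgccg
MT-ND4L/MT-ND4, chrM:10748-10778: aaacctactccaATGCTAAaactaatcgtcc
The capitals open with the start codon of the downstream gene and contain the stop codon of the upstream one.

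The nuclear genome holds copies of mtDNA, the longest of which, at chr1:629081-634924 in hg38, matched chrM:3911-9755 at 98.5% identity. A read of 75 bases that falls in a perfectly copied stretch aligns equally well in both places, and how such reads were counted was not stated. Of all windows of that length, 36.6% in MT-CO1, 34.4% in MT-ND2, 28.0% in MT-ATP6 and 17.1% in MT-ND1 had an exact nuclear copy. MT-CO3 had 14.9%, MT-CO2 10.5%, MT-ND6 7.10% and MT-ND5 0.17%. The 5 genes MT-ATP8, MT-ND3, MT-ND4L, MT-ND4 and MT-CYB, had 0 such windows.

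The 13 mRNAs made up a sizeable part of each library. In adherent shCtrl cells they took 7.37%, 5.76% and 6.25% of all counts, and in adherent shSigma cells 6.76%, 6.94% and 8.04%. Sphere libraries held 5.33%, 5.82% and 4.94% in shCtrl and 7.35%, 8.51% and 8.03% in shSigma. The means were 6.46% ± 0.83 and 7.25% ± 0.69 (SD, n = 3) in adherent cells, whose ranges overlapped, and 5.36% ± 0.44 and 7.96% ± 0.58 (SD, n = 3) in spheres, whose ranges did not. The lowest adherent shSigma share lay below the highest adherent shCtrl share, which belonged to adherent shCtrl replicate 1, the library lowest in GC-rich genes. These shares are a description and were not tested. They are relative to the library, so more mtDNA RNA per cell and more cells rich in it cannot be told apart.

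Per kilobase, MT-ND4 led in 3 of the 4 groups, with 10580 ± 1474 CPM per kilobase (SD, n = 3) in adherent shCtrl, and the complex IV mRNAs MT-CO2 and MT-CO3 followed. In sphere shCtrl cells MT-CO2 was first at 7648 ± 1064 and MT-ND4 next at 7236 ± 722 CPM per kilobase (SD, n = 3), which did not differ beyond their spread. MT-ND6 was last in all groups, at 125 to 177 CPM per kilobase on average. Its mRNA is known to carry little or no poly(A) tail, and the heavy-strand precursor runs antisense to it, so how far its counts follow the mRNA in polyA libraries with strand use unstated was not tested.

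Within the sum of the 13 mRNAs per kilobase, MT-ND4L and MT-CO1, the catalytic subunit of complex IV, shifted most between groups in their share. MT-CO1 held 8.78% ± 0.42 in adherent shCtrl and 10.4% ± 0.25 in adherent shSigma, but 10.2% ± 0.41 in sphere shCtrl and 7.73% ± 0.12 in sphere shSigma (SD, n = 3). Its share was thus higher with the knockdown in adherent cells and lower in spheres. MT-ND4L held 8.73% ± 0.099 in adherent shCtrl, 7.70% ± 0.10 in adherent shSigma, 5.81% ± 0.29 in sphere shCtrl and 6.44% ± 0.53 in sphere shSigma.

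**Figure D1:**
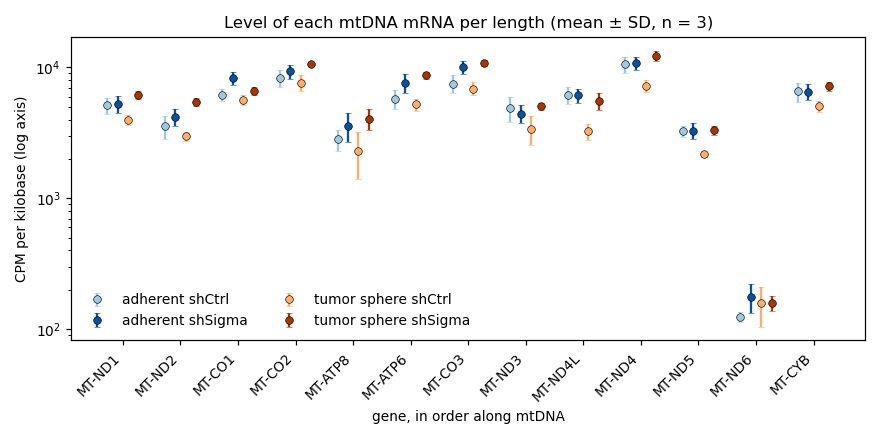
Mean ± SD (n = 3) of TMM-scaled CPM per kilobase, on a log axis, for each mtDNA mRNA in the 4 groups, ordered along mtDNA. MT-ND6, at 125 to 177 CPM per kilobase, lies more than 10 times below every other mRNA, and tumor sphere shCtrl is lowest for most genes.

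With the knockdown in tumor spheres the mtDNA mRNAs were higher nearly as a block. Of the 13, 12 were called higher at an adjusted p under 0.05 and 0 lower, against 30.2% called higher and 30.9% lower among all 13774 genes tested. Their log2 fold changes, shSigma against shCtrl, had a median of 0.64 and ran from 0.01 to 0.86, where the median of all genes was 0.00. For 11 of the 13, every shSigma library lay above every shCtrl library, while 66.8% of all genes did not overlap in one direction or the other. In all, 61.1% of genes were called in this comparison.

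MT-ND2, a membrane subunit of complex I, had the largest change. Its sphere libraries stood at 3008, 3405 and 2960 CPM in shCtrl and at 5300, 6025 and 5770 CPM in shSigma, a log2 fold change of 0.86 ± 0.078 (SE, adjusted p = 1.84e-06). This was also the smallest adjusted p of any mtDNA mRNA in the comparison. MT-ATP8 followed at 357, 690 and 382 CPM in shCtrl and 693, 1000 and 821 CPM in shSigma, a log2 fold change of 0.81 ± 0.23 (SE, adjusted p = 0.0131). Its groups only just separated, and the adjusted p was 0.0859 without sphere shCtrl replicate 1, 0.0738 without sphere shCtrl replicate 3 and 0.134 with no filter on low counts.

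MT-ND4L and MT-ND4 rose together. MT-ND4L stood at 974, 1103 and 824 CPM in sphere shCtrl and at 1382, 1889 and 1685 CPM in sphere shSigma, a log2 fold change of 0.77 ± 0.13 (SE, adjusted p = 0.000615). MT-ND4 stood at 10415, 10666 and 8831 CPM in shCtrl and at 15326, 18119 and 17430 CPM in shSigma, a log2 fold change of 0.76 ± 0.095 (SE, adjusted p = 2.71e-05). Groups did not overlap for either gene, neither of which has an exact nuclear copy of read length. The other complex I mRNAs that rose were MT-ND1 at 0.63, MT-ND5 at 0.60 and MT-ND3 at 0.56. MT-ATP6 rose by 0.74, MT-CO3 by 0.64, MT-CYB, the mtDNA subunit of complex III, by 0.51 and MT-CO2 by 0.47.

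The 2 mRNAs that stood apart from this block were MT-CO1 and MT-ND6. MT-CO1 stood at 8410, 9546 and 8251 CPM in shCtrl and at 9501, 10796 and 10449 CPM in shSigma, the smallest change among those called, with a log2 fold change of 0.23 ± 0.082 (SE, adjusted p = 0.0305), and its groups overlapped. That call was lost without sphere shSigma replicate 2 or 3 or sphere shCtrl replicate 1 or 3 (adjusted p from 0.0763 to 0.122) and in 1 fit of all 12 libraries (adjusted p = 0.101). MT-ND6 had a log2 fold change of 0.01 ± 0.21 (SE, adjusted p = 0.967), with 55.0, 110 and 82.3 CPM in shCtrl and 75.5, 95.7 and 78.9 CPM in shSigma. That interval is wide enough to hold a change of the size seen in MT-CO1. Along mtDNA the changes followed no steady gradient: MT-ND2 near the start and MT-ATP8 in the middle were highest, and MT-CO1 between them was lowest on the heavy strand.

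In adherent cells most mtDNA mRNAs were not called with the knockdown. Called higher was 1 of 13, MT-CO1, and 0 were called lower, against 22.3% higher and 27.7% lower among all 13764 genes, 50.0% in all. Groups of libraries did not overlap for 3 of the 13 mRNAs, and for 57.9% of all genes. The median log2 fold change was 0.10, with a range from -0.20 for MT-ND3 to 0.44 for MT-ND6, and the median of all genes was -0.01. MT-CO1 stood at 10778, 8781 and 9129 CPM in shCtrl and at 11832, 12009 and 14429 CPM in shSigma, a log2 fold change of 0.35 ± 0.12 (SE, adjusted p = 0.0476). MT-CO3 was at 0.35 and MT-ATP6 at 0.34, with adjusted p of 0.0710 and 0.112, while the 6 complex I mRNAs other than MT-ND6 lay between -0.20 and 0.17 and MT-CYB at -0.07.

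These adherent calls moved with single libraries. The MT-CO1 call was lost when any adherent library but shCtrl replicate 1 was left out, with adjusted p from 0.0529 to 0.123. Without shCtrl replicate 1 the number called was 3, all higher, where 22.4% of all genes were called higher. After the data were seen, the comparison was repeated without adherent shCtrl replicate 1 and adherent shSigma replicate 3, the libraries lowest in GC-rich genes. Adherent shCtrl replicate 2, at -0.55 on the GC index, stayed in that fit. Then 5 of 13 were called higher: MT-CO1, MT-CO2, MT-CO3, MT-ATP6 and MT-ATP8, at 0.39, 0.18, 0.43, 0.37 and 0.26. In that setting 28.2% of all genes were called higher. Of the 7 complex I mRNAs none was called in that setting, but MT-ND6 was called higher with DESeq2 (adjusted p = 0.0143), with the correction for GC content (adjusted p = 0.00982), with upper-quartile factors, with no robust estimation and without adherent shSigma replicate 2 (adjusted p = 0.0162).

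**Figure D2:**
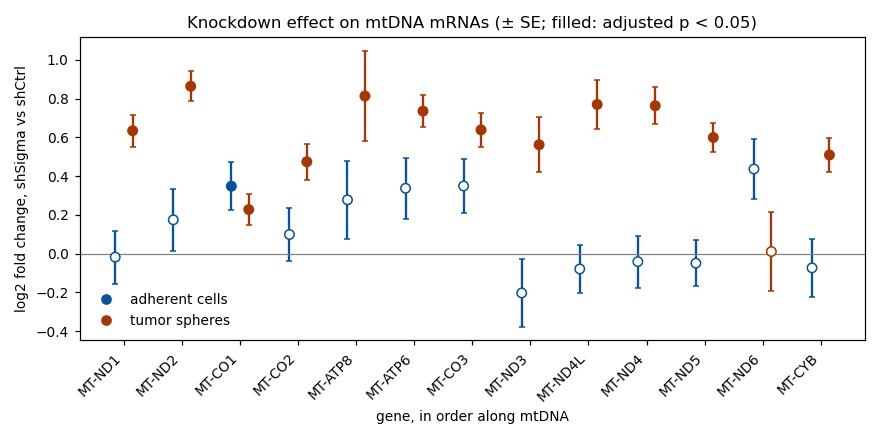
Log2 fold change ± SE of each mtDNA mRNA, shSigma against shCtrl, in adherent cells (blue) and tumor spheres (brown), in gene order along mtDNA; filled points have an adjusted p under 0.05. In spheres 12 of 13 are filled and lie from 0.23 to 0.86, and in adherent cells 1, MT-CO1 at 0.35, is filled.

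Whether the knockdown effect differed between cultures was tested as an interaction over all 12 libraries, spheres minus adherent cells. Among the mtDNA mRNAs 5 of 13 had a called interaction, all higher in spheres, against 12.7% higher and 15.6% lower among all 14175 genes tested, 28.4% in all. All 5 code for complex I: MT-ND4L at 0.78 ± 0.21 (SE, adjusted p = 0.0133), MT-ND4 at 0.74 ± 0.18 (adjusted p = 0.00655), MT-ND2 at 0.62 ± 0.19 (adjusted p = 0.0268), MT-ND1 at 0.59 ± 0.18 (adjusted p = 0.0228) and MT-ND5 at 0.58 ± 0.16 (adjusted p = 0.0123). The 3 complex IV mRNAs ran from -0.19 to 0.31 and neither ATP synthase mRNA was called. MT-CYB and MT-ND3 missed the threshold at 0.52 and 0.70, with adjusted p of 0.0566 and 0.0777. MT-CYB, of complex III, was called with DESeq2 (adjusted p = 0.0138), total counts only (0.0419), no filter (0.0192) and the GC correction (0.00912). It was not called with upper-quartile factors or the replicate block. MT-ND3 was called with DESeq2 (0.0112) and the GC correction (0.0253). That all calls were complex I mRNAs thus held in the main fit and not in every setting. MT-ND6, also a complex I mRNA, had the lowest value of the 13 at -0.49 (adjusted p = 0.343). Whether complex I mRNAs differed from the other mRNAs in this was not tested.

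The adherent values behind these interactions scattered. MT-ND1 stood at 5620, 4214 and 4858 CPM in adherent shCtrl and at 4540, 4747 and 5924 CPM in adherent shSigma, and at 3672, 4161 and 3537 CPM in sphere shCtrl and 5476, 6368 and 5840 CPM in sphere shSigma. MT-ND2 had 4422, 2978 and 3699 CPM in adherent shCtrl and 3873, 4132 and 5130 CPM in adherent shSigma. In both genes the adherent groups overlapped and the sphere groups did not. MT-ND4 in adherent cells had 16832, 12889 and 14015 CPM in shCtrl and 13931, 13830 and 16780 CPM in shSigma, and MT-ND4L had 2124, 1602 and 1787 CPM in shCtrl and 1672, 1714 and 2083 CPM in shSigma. MT-ND5 had 6476, 5298 and 5897 CPM in adherent shCtrl and 5569, 5392 and 6935 CPM in adherent shSigma, and 4168, 3904 and 3756 CPM in sphere shCtrl and 5457, 6248 and 6259 CPM in sphere shSigma. All 3 of these again overlapped only in adherent cells. Without adherent shSigma replicate 3, 9 mtDNA mRNAs had a called interaction, where 32.7% of all genes were called. The number was 3 without adherent shSigma replicate 1, sphere shSigma replicate 2 or sphere shCtrl replicate 3. The calls lost were those of MT-ND1 and MT-ND2, with adjusted p from 0.0545 to 0.064 in these settings. MT-ND2 alone also missed the threshold without adherent shSigma replicate 2 (adjusted p = 0.055) and without sphere shCtrl replicate 1 (adjusted p = 0.0509).

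The nuclear factors did not move as a block. In spheres 8 of 21 were called higher and 6 lower, against 30.2% and 30.9% of all genes, at a median of 0.00 on the log2 scale and a range from -0.78 to 0.70. In adherent cells 3 were called higher and 8 lower, against 22.3% and 27.7% of all genes, with a median of -0.13 and a range from -1.05 to 1.07. Called in either direction, the 14 in spheres and 11 in adherent cells were near the 61.1% and 50.0% of all genes. The number called in adherent cells was 7 without shSigma replicate 1 (37.0% of all genes called) and 7 without shCtrl replicate 2 (37.2%).

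Of the transcription factors, TFAM fell in both cultures, at chr10:58385345-58399220 in hg38. It stood at 117, 110 and 104 CPM in adherent shCtrl and at 73.2, 66.9 and 75.7 CPM in adherent shSigma, a log2 fold change of -0.68 ± 0.079 (SE, adjusted p = 0.000343), the smallest adjusted p of the nuclear factors there. In spheres it went from 89.5, 95.0 and 92.7 CPM to 61.2, 64.1 and 62.4 CPM, a log2 fold change of -0.57 ± 0.056 (SE, adjusted p = 3.98e-06). No library overlapped between shCtrl and shSigma in either culture. TFAM RNA was thus lower in the same sphere libraries in which 12 mtDNA mRNAs were higher.

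The other transcription factors varied. MTERF1, which binds a termination site in mtDNA, rose in both cultures, by 0.41 ± 0.11 (SE, adjusted p = 0.0177) in adherent cells and by 0.35 ± 0.082 (SE, adjusted p = 0.00277) in spheres. Its adherent call was lost without adherent shCtrl replicate 2 or 3 (adjusted p of 0.0521 and 0.0512). TEFM, an elongation factor, fell in spheres by 0.31 on the log2 scale (adjusted p = 0.0154, but 0.0783 without sphere shSigma replicate 2) and had a log2 fold change of -0.22 in adherent cells (adjusted p = 0.16). TFB2M had log2 fold changes of -0.13 and 0.00, with adjusted p of 0.185 and 0.954. TFB1M, which methylates the small mitochondrial ribosomal RNA, fell by 0.36 and 0.38 on the log2 scale, with adjusted p of 0.0274 and 0.00746, and 1264 of its exonic bases overlap TIAM2 on the other strand. The adherent call was lost with DESeq2 (adjusted p = 0.0764) and without adherent shSigma replicate 1 or 2 or adherent shCtrl replicate 1 or 2 (adjusted p from 0.116 to 0.191), where the log2 fold change came as near to 0 as -0.22.

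POLRMT rose in spheres, from 47.7, 37.7 and 45.2 CPM to 68.0, 57.6 and 55.2 CPM, a log2 fold change of 0.47 ± 0.10 (SE, adjusted p = 0.00247). In adherent cells it stood at 16.6, 29.2 and 46.0 CPM in shCtrl and at 43.8, 49.3 and 18.6 CPM in shSigma, a log2 fold change of 0.24 ± 0.49 (SE, adjusted p = 0.71). Its lowest values fell in the libraries lowest in GC-rich genes, and 66.1% of its bases are G or C. With a correction for GC content, added after the data were seen, the sphere change was 0.10 and no longer called (adjusted p = 0.131), nor was it called in 1 fit of all 12 libraries (adjusted p = 0.354).

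Stability and decay factors held the largest losses. SLIRP, which binds LRPPRC and with it keeps mitochondrial mRNAs stable and available for polyadenylation, lies at chr14:77708071-77761104 and stood at 102, 79.7 and 78.0 CPM in adherent shCtrl and at 39.6, 44.3 and 48.0 CPM in adherent shSigma. That was a log2 fold change of -1.05 ± 0.13 (SE, adjusted p = 0.000463), 0.484 times the control level. In spheres it stood at 68.9, 101 and 80.9 CPM in shCtrl and at 50.1, 48.2 and 48.1 CPM in shSigma, a log2 fold change of -0.78 ± 0.12 (SE, adjusted p = 0.000358). Groups were apart in both cultures, and SNW1 and C14orf178 overlap 118 and 271 of its exonic bases.

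LRPPRC itself was called lower only in adherent cells, and here the difference between cultures was called. It stood at 756, 710 and 671 CPM in adherent shCtrl and at 505, 479 and 573 CPM in adherent shSigma, a log2 fold change of -0.52 ± 0.083 (SE, adjusted p = 0.00156). Sphere libraries held 530, 530 and 517 CPM in shCtrl and 489, 486 and 507 CPM in shSigma, all of them below shCtrl. The log2 fold change in spheres was -0.09 ± 0.049 (SE, adjusted p = 0.116), not called. The interaction was 0.37 ± 0.10 (SE, adjusted p = 0.0152). The sphere shCtrl level was close to the adherent shSigma level.

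MTPAP, the mitochondrial poly(A) polymerase, changed in opposite directions. Its adherent values were 49.8, 49.3 and 43.9 CPM in shCtrl and 38.5, 32.6 and 42.9 CPM in shSigma, a log2 fold change of -0.39 ± 0.11 (SE, adjusted p = 0.0184). Its sphere values were 25.9, 25.8 and 26.9 CPM in shCtrl and 33.2, 34.7 and 32.6 CPM in shSigma, a log2 fold change of 0.35 ± 0.071 (SE, adjusted p = 0.00109). Groups did not overlap in either culture, and the interaction of 0.68 ± 0.13 (SE, adjusted p = 0.00165) had the smallest adjusted p of all 34 genes. The adherent fall was not called without adherent shSigma replicate 1 or 2 or adherent shCtrl replicate 1 or 2 (adjusted p from 0.0865 to 0.137), with a log2 fold change of -0.23 without shSigma replicate 2. MTPAP lies at chr10:30309801-30374448.

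ELAC2, the nuclease that trims the 3′ ends of transfer RNAs and so frees mRNAs from the precursor, fell in adherent cells. It stood at 123, 126 and 138 CPM in shCtrl and at 101, 104 and 107 CPM in shSigma, a log2 fold change of -0.37 ± 0.059 (SE, adjusted p = 0.00155), with an adjusted p of 0.0513 without adherent shSigma replicate 1. In spheres it stood at 106, 105 and 105 CPM in shCtrl and at 113, 111 and 110 CPM in shSigma, a log2 fold change of 0.07 ± 0.049 (SE, adjusted p = 0.214). The interaction was 0.39 ± 0.082 (SE, adjusted p = 0.00299).

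The degradosome is made of the exoribonuclease PNPT1 and the helicase SUPV3L1. PNPT1 stood at 138, 126 and 123 CPM in adherent shCtrl and at 93.3, 90.0 and 104 CPM in adherent shSigma, a log2 fold change of -0.50 ± 0.077 (SE, adjusted p = 0.00136). In spheres it stood at 101, 109 and 104 CPM in shCtrl and at 95.3, 89.6 and 95.9 CPM in shSigma, a log2 fold change of -0.16 ± 0.055 (SE, adjusted p = 0.0223). That sphere call was lost with DESeq2 (adjusted p = 0.0514), in 1 fit of all 12 libraries (0.0769), with the GC correction (log2 fold change -0.07, adjusted p = 0.267) and without sphere shSigma replicate 1 or 2 or sphere shCtrl replicate 3 (adjusted p from 0.0505 to 0.103). The difference between cultures was not called in the main fit (0.27, adjusted p = 0.0553) or with upper-quartile factors. It was called with DESeq2 (adjusted p = 0.0386), total counts only (0.0237), no filter (0.0153) and the GC correction (0.00121). SUPV3L1 had a log2 fold change of -0.23 in adherent cells (adjusted p = 0.0440), with overlapping groups. It was not called with DESeq2 (adjusted p = 0.178), under any other scaling, with no filter (0.101), in 1 fit of all 12 libraries (0.0734) or without adherent shSigma replicate 1 or 2 or adherent shCtrl replicate 1 or 2, where the log2 fold change came as near to 0 as -0.12. It had a log2 fold change of 0.10 in spheres (adjusted p = 0.195). The SUPV3L1 interaction was not called in the main fit or with DESeq2. It was called with total counts only (adjusted p = 0.0359), no filter (0.0271) and the GC correction (0.00616).

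Of the FASTK family of RNA-binding proteins, FASTK, whose mitochondrial form is needed for MT-ND6 RNA, rose in spheres by 0.67 ± 0.086 (SE, adjusted p = 3.53e-05, but 0.0842 in 1 fit of all 12 libraries). In adherent cells it stood at 17.9, 24.0 and 35.3 CPM in shCtrl and at 58.9, 61.9 and 29.3 CPM in shSigma, a log2 fold change of 0.91 ± 0.37 (SE, adjusted p = 0.087). As with POLRMT, its lowest values fell in the adherent libraries low in GC-rich genes, here shCtrl replicates 1 and 2 and shSigma replicate 3. Without adherent shCtrl replicate 1 and shSigma replicate 3 the change was 1.01 (adjusted p = 0.00971), with shCtrl replicate 2 still in the fit. FASTKD5 fell in spheres by 0.36 on the log2 scale (adjusted p = 0.00275), with -0.11 in adherent cells (adjusted p = 0.434). UBOX5-AS1, on the other strand, and UBOX5, on the same strand, overlap 330 and 100 of its exonic bases. FASTKD1, FASTKD2 and GRSF1, a protein of mitochondrial RNA granules, had log2 fold changes between -0.21 and 0.06 in both cultures and none was called.

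None of the 4 replication factors was called lower with the knockdown, where 27.7% of all genes were in adherent cells and 30.9% in spheres. POLG, the catalytic subunit of the mtDNA polymerase at chr15:89305198-89334861, stood at 38.8, 52.4 and 59.97 CPM in adherent shCtrl and at 116, 117 and 97.2 CPM in adherent shSigma. Its log2 fold change of 1.07 ± 0.17 (SE, adjusted p = 0.00211) was the largest of the 34 genes there. In spheres it went from 63.8, 58.6 and 64.3 CPM to 98.7, 101 and 105 CPM, a log2 fold change of 0.70 ± 0.061 (SE, adjusted p = 1.36e-06), the smallest adjusted p of the 21 nuclear factors. Groups did not overlap in either culture, and 458 of its exonic bases overlap FANCI on the other strand.

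POLG2, the accessory subunit of the polymerase, rose by 0.32 ± 0.078 (SE, adjusted p = 0.0111) in adherent cells and by 0.22 ± 0.073 (SE, adjusted p = 0.0192) in spheres. The sphere call was lost, with adjusted p from 0.0624 to 0.0702, without sphere shSigma replicate 2, sphere shSigma replicate 3 or sphere shCtrl replicate 3. TWNK, the replicative helicase, stood at 43.6, 41.9 and 39.8 CPM in adherent shCtrl and at 43.8, 44.6 and 47.5 CPM in adherent shSigma, a log2 fold change of 0.05 ± 0.075 (SE, adjusted p = 0.597). In spheres it went from 36.8, 35.4 and 35.2 CPM to 47.1, 50.1 and 51.5 CPM, a log2 fold change of 0.47 ± 0.066 (SE, adjusted p = 8.34e-05), and its interaction was 0.35 ± 0.095 (SE, adjusted p = 0.0133). MRPL43, on the other strand, overlaps 149 of the exonic bases of TWNK. SSBP1, which coats single-stranded mtDNA, rose by 0.50 ± 0.095 (SE, adjusted p = 0.000701) in spheres, with 0.14 in adherent cells (adjusted p = 0.402). All 4 replication factors were thus called higher in spheres, where 30.2% of all genes were. In adherent cells 2 of them, POLG and POLG2, were called higher, where 22.3% of all genes were.

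**Figure D3:**
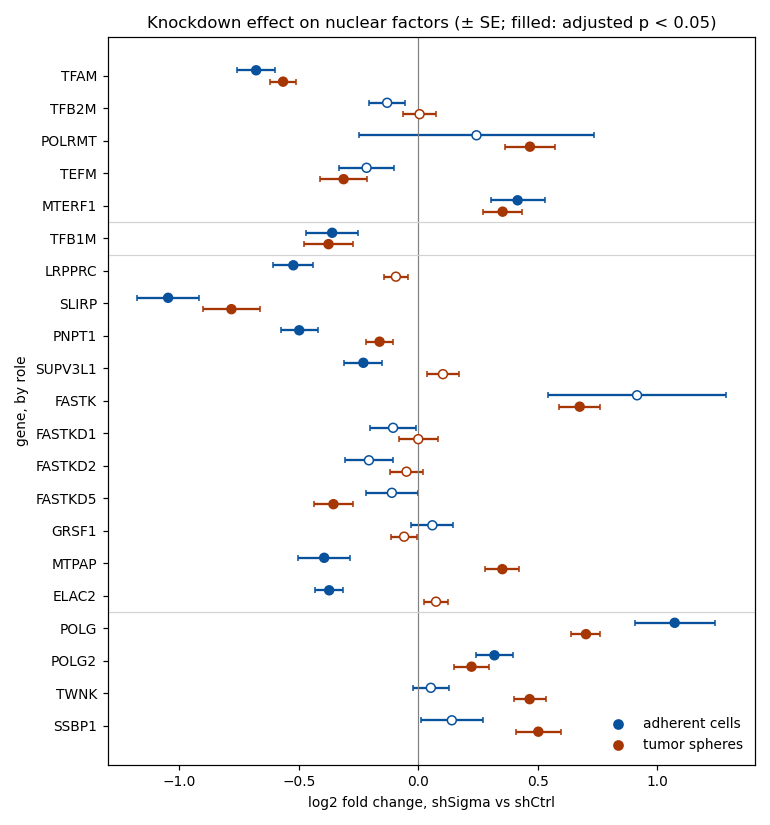
Log2 fold change ± SE of the 21 nuclear factors, shSigma against shCtrl, in adherent cells (blue) and tumor spheres (brown), grouped by role from transcription at the top to replication at the bottom; filled points have an adjusted p under 0.05. TFAM and SLIRP lie to the left and POLG to the right in both cultures, and MTPAP lies on opposite sides.

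Among the 21 nuclear factors 4 had a called interaction, all higher in spheres: LRPPRC, MTPAP, ELAC2 and TWNK. Among all genes 12.7% were called higher and 15.6% lower, 28.4% in all. The nuclear factors did not exceed the share called in either direction, but did exceed the share called higher. That difference in direction was not tested. With the GC correction 9 were called, 6 higher and 3 lower, where 41.4% of all genes were called. The number was 7 without adherent shCtrl replicate 3, where 28.6% of all genes were called. It was also 7, of which 6 higher, without both adherent libraries lowest in GC-rich genes, where 34.4% were. All 4 of the genes named here were among the calls in the second setting.

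**Figure D4:**
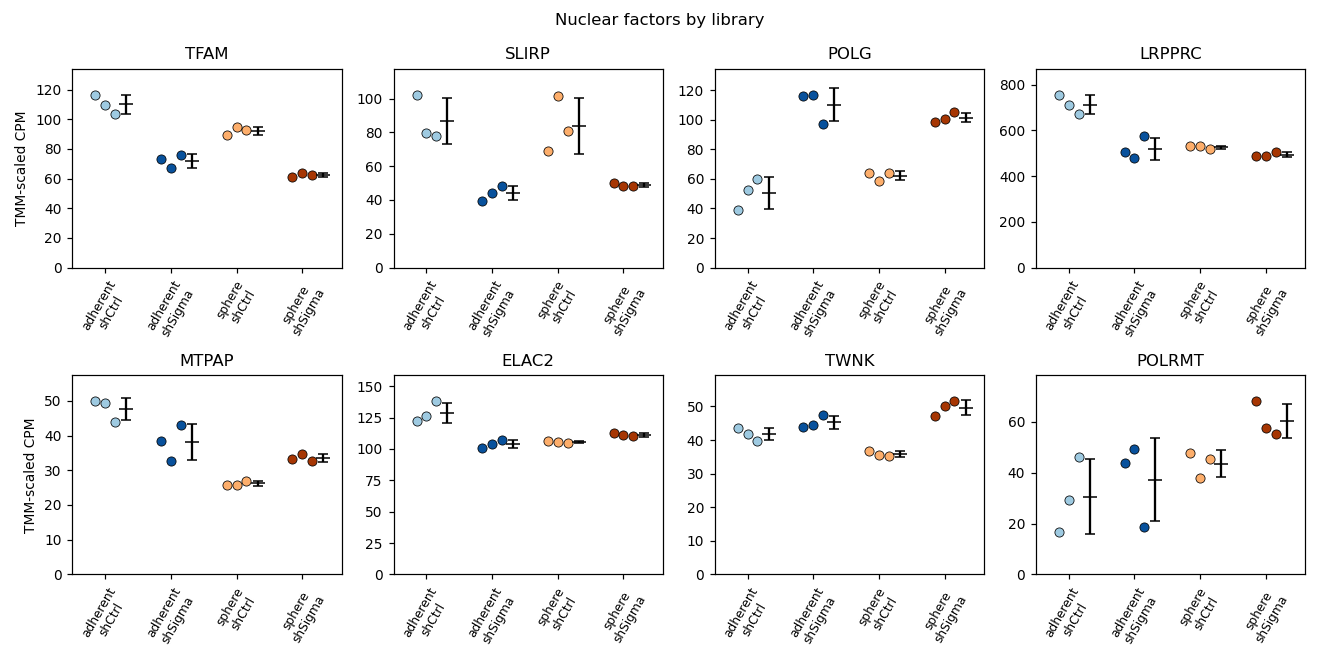
TMM-scaled CPM of 8 nuclear factors in every library; each dot is 1 library and the bar beside it the group's mean ± SD (n = 3). MTPAP is lower with the knockdown in adherent cells and higher in spheres, and POLRMT spreads from 16.6 to 49.3 CPM among the adherent libraries.

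Promoters of 19 of the 21 nuclear factors were found in the RefSeq table (GRCh38.p14), as 300 bases from 250 before to 50 after the gene's start; FASTKD5 and TWNK were not. They were searched on both strands for GCNTGCGC, a core of the NRF1 site, and for CCGGAAG, a core of the sites of ETS factors such as GABPA, since both regulators are known to drive genes of this kind. The NRF1 letters were in 6 of the 19, TFAM, TFB2M, POLRMT, TFB1M, MTPAP and POLG2, and in 12.5% of all 27305 promoters. The ETS letters were in 8 of the 19 and in 10.7% of all promoters. No match to one overlapped a match to the other. The promoters of TFAM and SLIRP, both lower with the knockdown in both cultures, are shown with the matches in capitals, an NRF1 match in the first and an ETS match in the second.
TFAM, chr10:58385160-58385459, plus strand: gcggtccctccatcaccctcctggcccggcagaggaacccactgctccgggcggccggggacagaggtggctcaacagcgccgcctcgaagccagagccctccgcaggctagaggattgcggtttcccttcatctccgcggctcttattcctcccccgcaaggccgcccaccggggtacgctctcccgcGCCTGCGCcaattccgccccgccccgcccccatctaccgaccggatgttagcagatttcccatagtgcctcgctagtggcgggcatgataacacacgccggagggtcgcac
SLIRP, chr14:77707853-77708152, plus strand: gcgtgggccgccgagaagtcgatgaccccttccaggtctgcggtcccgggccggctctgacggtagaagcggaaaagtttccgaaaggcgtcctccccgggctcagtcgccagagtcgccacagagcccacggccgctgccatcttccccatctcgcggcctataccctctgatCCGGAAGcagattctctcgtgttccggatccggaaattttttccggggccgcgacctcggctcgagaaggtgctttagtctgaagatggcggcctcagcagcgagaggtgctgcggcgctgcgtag
A match is a description of the letters, and the 6 genes with NRF1 letters did not share a direction: in spheres TFAM and TFB1M were lower, POLRMT, MTPAP and POLG2 higher, and TFB2M not called.

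In control cells the mtDNA mRNAs that changed with culture were lower in spheres. From adherent to sphere shCtrl cells 0 of 13 were called higher and 5 lower, against 27.4% and 26.3% among all 13800 genes, 53.7% in all. The 5 were also those whose groups did not overlap, which held for 62.7% of all genes. The median log2 fold change was -0.29, with 12 of 13 below 0, where the median of all genes was 0.04. MT-ND4L fell most, a log2 fold change of -0.93 ± 0.14 (SE, adjusted p = 0.000986), from 2124, 1602 and 1787 CPM in adherent cells to 974, 1103 and 824 CPM in spheres. MT-ND5 fell by 0.58 on the log2 scale (adjusted p = 0.00199), MT-ND4 by 0.55 (adjusted p = 0.0101), MT-CYB by 0.38 (adjusted p = 0.0495) and MT-ND1 by 0.37 (adjusted p = 0.0352). Apart from MT-CYB these are complex I genes. MT-CO1, MT-CO2 and MT-CO3 lay close together at -0.13, with adjusted p from 0.37 to 0.485. Without sphere shCtrl replicate 3 the number called was 3, where 41.7% of all genes were called. The MT-CYB and MT-ND1 calls were lost without sphere shCtrl replicate 1 or 3 and with upper-quartile factors (adjusted p from 0.0562 to 0.136 over the settings that lost them).

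Of the nuclear factors 2 rose and 9 fell in this comparison, against 27.4% and 26.3% of all genes, with a median of -0.14. In all 11 of 21 were called, about the 53.7% of all genes. The share that fell was larger, and the share that rose smaller, than among all genes. MTPAP fell most, a log2 fold change of -0.86 ± 0.081 (SE, adjusted p = 7.59e-05), and its sphere values at 25.8 to 26.9 CPM all lay below its adherent values. LRPPRC fell by 0.44 on the log2 scale (adjusted p = 0.000879), POLG2 by 0.51 (adjusted p = 0.00114), TFB1M by 0.53 (adjusted p = 0.00668) and TFAM by 0.25 (adjusted p = 0.0122). PNPT1, SUPV3L1, ELAC2 and TWNK completed those that fell, between -0.31 and -0.22. The TWNK call was lost with DESeq2 and without adherent shCtrl replicate 2 or any of the 3 sphere libraries (adjusted p from 0.0559 to 0.102), and the TFAM call with the GC correction and without sphere shCtrl replicate 1. FASTK rose by 0.87 ± 0.23 (SE, adjusted p = 0.017), from 17.9, 24.0 and 35.3 CPM to 48.1, 44.4 and 48.8 CPM, and FASTKD5 rose by 0.40. The FASTK call was lost without adherent shCtrl replicate 2 (adjusted p = 0.0618), without sphere shCtrl replicate 3 (adjusted p = 0.0506) and with no filter on low counts (adjusted p = 0.0517). The number of nuclear factors called was 7 without sphere shCtrl replicate 1, where 43.8% of all genes were called.

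In shSigma cells few of these genes were called between cultures. Called higher was 1 of 13 mtDNA mRNAs and called lower 1, against 21.9% and 25.2% of all 13622 genes, 47.1% in all, and the median log2 fold change was 0.20. The groups of these 2 did not overlap, as for 60.8% of all genes. MT-ND2 rose by 0.41 ± 0.098 (SE, adjusted p = 0.0112), from 3873, 4132 and 5130 CPM to 5300, 6025 and 5770 CPM. MT-CO1 fell by 0.29 on the log2 scale (SE 0.087, adjusted p = 0.0269), from 11832, 12009 and 14429 CPM to 9501, 10796 and 10449 CPM. The MT-CO1 call was lost without sphere shSigma replicate 1 (adjusted p = 0.0979) or replicate 3 (adjusted p = 0.0775), each of which left 1 mRNA called. Without adherent shSigma replicate 3, the library low in GC-rich genes, 9 of 13 were called, 8 higher and MT-CO1 lower, and 12 of the 21 nuclear factors, where 56.2% of all genes were called.

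Among the nuclear factors 0 of 21 rose and 4 fell in shSigma cells, at a median of 0.02, against 21.9% and 25.2% of all genes. POLG2 stood at 50.6, 48.6 and 48.8 CPM in adherent shSigma and at 29.7, 31.9 and 32.1 CPM in sphere shSigma, a log2 fold change of -0.64 ± 0.066 (SE, adjusted p = 0.000221). TFB1M stood at 18.4, 20.02 and 21.1 CPM and at 13.1, 12.7 and 13.3 CPM, a log2 fold change of -0.59 ± 0.081 (SE, adjusted p = 0.000896). GRSF1 stood at 173, 167 and 200.4 CPM and at 144, 140.2 and 150 CPM, a log2 fold change of -0.29 ± 0.062 (SE, adjusted p = 0.00637). Each of these was lower in all sphere libraries. TFAM had a log2 fold change of -0.18 (adjusted p = 0.0345). That call was lost with DESeq2, upper-quartile factors, the replicate block and the GC correction. It was also lost without adherent shSigma replicate 1 or any of the 3 sphere libraries (adjusted p from 0.0571 to 0.435 over all these settings). The knockdown and culture comparisons share libraries, so their values stand side by side here and are not independent.

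Beyond these genes, 3 lists of related genes gave the wider setting. Of 13 tested regulators of mitochondrial biogenesis, the transcription factors and coactivators that set the output of nuclear mitochondrial genes, 0 rose and 7 fell with the knockdown in adherent cells, where 22.3% of all genes rose and 27.7% fell. In spheres 6 rose and 2 fell, against 30.2% and 30.9% of all genes. MYC, a transcription factor that drives growth and biogenesis genes, fell in adherent cells from 69.4, 67.9 and 78.9 CPM to 48.8, 56.4 and 49.9 CPM (log2 fold change -0.54 ± 0.092 SE, adjusted p = 0.00216). It rose in spheres from 95.8, 84.9 and 79.2 CPM to 117, 115 and 114 CPM (log2 fold change 0.41 ± 0.068 SE, adjusted p = 0.000255), and its interaction was 0.90 (adjusted p = 8.98e-05). PPARGC1B, a coactivator of mitochondrial genes, fell in adherent cells by 0.86 on the log2 scale (adjusted p = 0.000841). In spheres its log2 fold change was above 0, at 0.15, and not called (adjusted p = 0.321). The interaction was 0.95 (adjusted p = 0.00129). ESRRA, the nuclear receptor ERRα, rose in spheres by 0.48 (adjusted p = 0.00461), with 0.06 in adherent cells (adjusted p = 0.879).

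Of 33 tested genes for mitochondrial RNA processing and decay, 4 rose and 15 fell in adherent cells. Among all genes 22.3% rose and 27.7% fell there, and 19 of the list were called where 50.0% of all genes were. In spheres 5 rose and 12 fell, against 30.2% and 30.9% of all genes, 17 called where 61.1% of all genes were. MTERF3, which restrains mtDNA transcription and supports ribosome assembly, fell in both cultures, by 1.14 on the log2 scale (adjusted p = 0.000109) and by 0.85 (adjusted p = 1.17e-06). PRORP, the nuclease of mitochondrial RNase P, which cuts the 5′ ends of transfer RNAs, fell in adherent cells by 0.83 (adjusted p = 0.000103) and stood at 0.05 in spheres (adjusted p = 0.62). Its interaction was 0.82 (adjusted p = 0.000165). RPUSD3, a pseudouridine synthase, fell by 0.88 (adjusted p = 9.31e-05) and by 0.51 (adjusted p = 0.000126).

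Of 24 tested genes for mtDNA replication and nucleotide supply, 2 rose and 11 fell in adherent cells and 4 rose and 11 fell in spheres. Among all genes 22.3% rose and 27.7% fell in adherent cells, and 30.2% rose and 30.9% fell in spheres. In either direction 13 and 15 were called, near the 50.0% and 61.1% of all genes. In both cultures the share that fell was larger, and the share that rose smaller, than among all genes. DNA2, a nuclease and helicase, fell in adherent cells by 1.14 on the log2 scale (adjusted p = 7.3e-05), from 61.4, 55.9 and 53.3 CPM to 24.9, 27.6 and 28.7 CPM, and stood at -0.08 in spheres (adjusted p = 0.393). RRM2, a subunit of the ribonucleotide reductase of dividing cells, fell by 1.13 (adjusted p = 6.28e-05) in adherent cells and by 0.36 (adjusted p = 0.00168) in spheres, and its level also follows the cell cycle. EXOG, a mitochondrial nuclease, fell by 0.79 (adjusted p = 0.00061) and by 1.03 (adjusted p = 3.37e-06). Across these lists the adherent medians were -0.23, -0.27 and -0.24, and the sphere medians 0.14, -0.08 and -0.11.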

How the data were processed

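Per the labels, polyA RNA from DU145 cells was sequenced as directional single-end libraries of 75 bases from 800 ng of total RNA. The authors aligned reads to GRCh38.p12 and counted them per gene with STAR 2.6.1c (version per the submitters' notes), and the deposited values are raw counts. The annotation, the use of strand and the handling of reads with several alignments were not given in the sources used here.

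The members and lists were chosen with earlier results of these data known. Counts were tested with edgeR 4.0.16 in R 4.3.3 by the robust quasi-likelihood test, two-sided, with TMM scaling and filterByExpr at a minimum count of 10. Each pair of groups was fitted alone, and the interaction over all 12 libraries. Benjamini-Hochberg adjustment ran over all genes tested, and calls were made under 0.05. CPM are TMM-scaled. The 5 members of largest change among those called in each comparison, the mtDNA transcript and nuclear factor of smallest adjusted p, every member with a called interaction, and up to 3 genes of each list were named with full values. An exact permutation test of 3 against 3 libraries cannot give a p below 0.1 and was not used. Lists were described by counts, with no set test.

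Symbols and coordinates came from GENCODE 44 on hg38, and 26153 of 28747 identifiers had one. Nuclear copies were found with blastn 2.17.0. Counting depth was 16472722 to 26957777 per library, at which a member's lowest count was 239. The procedure was tested on simulated counts. The level of the gene targeted by the hairpin is not reported here. The alternatives were an adjusted p under 0.01, DESeq2 1.42.0, its size factors, upper-quartile factors, total counts only, mtDNA mRNAs left out of the scaling, no filter, 10 counts in every library, no robust estimation, the replicate block, 1 fit of all 12 libraries and each library left out. A correction for GC content in 20 bins was chosen after seeing the data. So was a fit without both adherent libraries lowest in GC-rich genes, adherent shCtrl replicate 1 and adherent shSigma replicate 3. That fit kept adherent shCtrl replicate 2, which was also low in them. Sequence steps and plots used pandas 2.3.3 and matplotlib 3.10.9 in Python 3.11.15.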

Additional observations from a re-analysis of the deposited data

Results flagged for a closer look

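The knockdown effect differed between cultures, by the interaction test in edgeR, for 9 of the 34 genes. On the log2 scale, spheres minus adherent cells, the difference was 0.587 for MT-ND1, 0.624 for MT-ND2, 0.740 for MT-ND4, 0.784 for MT-ND4L and 0.585 for MT-ND5, 5 of the 7 complex I mRNAs of mtDNA. It was 0.366 for LRPPRC, 0.681 for MTPAP, 0.388 for ELAC2 and 0.352 for TWNK. All 9 were above 0. Among all genes tested 12.7% were called higher and 15.6% lower, 28.4% in either direction. MT-CYB, of complex III, was not called in this fit but was called in several other settings.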

How the results depend on the processing

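The 12 calls among mtDNA mRNAs in the sphere knockdown were 10 at an adjusted p under 0.01 (MT-ATP8 and MT-CO1 lost), 10 with no filter (MT-ATP8 and MT-ND3 lost), 11 in 1 fit of all 12 libraries (MT-CO1 lost), and 12 under each other alternative that used all libraries. Over the 34 genes and 5 comparisons, 1913 values under alternatives stayed on the same side of the threshold. A further 87 passed it newly, 72 missed it and 2 reversed. With single libraries left out 1117 stayed, 47 passed newly and 60 missed it. Direction was compared only where the main or the alternative fit called the gene, so an uncalled value that changed sign counted as stayed. The reversed values were those of POLRMT from adherent to sphere shCtrl cells, -0.35 with the GC correction, and of PNPT1 in shSigma cells, 0.10 with the GC correction. The cause was not tested.

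Called mtDNA mRNAs in the adherent knockdown numbered 1. The number was 0 at an adjusted p under 0.01, with DESeq2 size factors and with mtDNA mRNAs left out of the scaling. Of the 13, 3 had an unadjusted p under 0.05 in edgeR. The number was 2 with total counts only, no filter and no robust estimation. It was 3 with upper-quartile factors and 1 fit of all libraries, and 4 with DESeq2. Over these settings 15.3% to 29.3% of all genes were called higher, against 22.3% in the main fit. The number was 5 with the GC correction (31.5% of all genes called higher) and without both adherent libraries lowest in GC-rich genes (28.2%). Called nuclear factors numbered 11, and 6 at an adjusted p under 0.01, where 35.4% of all genes were called. Their median of -0.13 was -0.104 with DESeq2 and with its size factors, -0.0746 with upper-quartile factors, -0.0714 with total counts only, -0.111 with mtDNA mRNAs left out of the scaling, -0.0661 in 1 fit of all libraries and -0.0499 with the GC correction.

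From adherent to sphere shCtrl cells the 5 called mtDNA mRNAs were 2 at an adjusted p under 0.01 and 3 with upper-quartile factors. The 11 nuclear factors were 7 at the stricter threshold. Of all genes 37.3% were called at the stricter threshold and 53.7% with upper-quartile factors. In shSigma cells the 2 called mtDNA mRNAs were 0 at an adjusted p under 0.01 (4 of the 13 had an unadjusted p under 0.05). They were 5 with DESeq2 and with no filter, and 9 with the GC correction. All genes called were 28.7% at the stricter threshold, 39.6% with DESeq2, 31.2% with no filter and 55.9% with the GC correction. The 4 nuclear factors were 7 with total counts only (47.2% of all genes called) and with mtDNA mRNAs left out of the scaling (47.5%). They were 11 with the GC correction. Their median of 0.02 was 0.0384 with total counts only, -0.00506 in 1 fit of all libraries and 0.105 with the GC correction. For the interaction the 5 mtDNA mRNAs were 1 and the 4 nuclear factors 2 at an adjusted p under 0.01. At that threshold 17.7% of all genes were called. Both sets numbered 6 with DESeq2 size factors (28.5% of all genes called), total counts only (30.9%) and no filter (19.1%). They were 7 and 5 with DESeq2 (26.1%), and 7 and 6 at 10 counts in every library (31.6%). The mtDNA mRNAs were also 7 with the GC correction and without both adherent libraries lowest in GC-rich genes. Nuclear factors were 9 with the GC correction (41.4% of all genes called) and 7 without both adherent libraries lowest in GC-rich genes (34.4%). Their median of 0.07 was 0.157 with no filter and 0.138 at 10 counts in every library. It was also 0.138 without both adherent libraries lowest in GC-rich genes.

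Replicate numbers were not treated as pairs, and deviations of same-numbered libraries correlated between -0.735 and 0.288. With 3 libraries in a group these correlations cannot show whether same-numbered samples were prepared together. With the replicate block, called mtDNA mRNAs were 0 and nuclear factors 6 in the adherent knockdown, and 12 and 13 in the sphere knockdown. They were 3 and 10 with culture in shCtrl cells, 2 and 3 with culture in shSigma cells, and 3 and 4 for the interaction. Of all genes 35.4%, 59.3%, 47.6%, 48.4% and 24.2% were called with the block, in the same order.

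With each library left out in turn, called mtDNA mRNAs ran from 0 to 3 and nuclear factors from 7 to 12 in the adherent knockdown, with medians of 0.0242 to 0.296 and -0.194 to -0.0292. In the sphere knockdown they ran from 10 to 12 and 11 to 14, with medians of 0.573 to 0.731 and -0.00751 to 0.0735. With culture in shCtrl cells they ran from 3 to 7 and 7 to 15 (-0.442 to -0.174 and -0.241 to -0.117). In shSigma cells they ran from 1 to 9 and 3 to 12 (0.108 to 0.290 and -0.0188 to 0.0545). For the interaction they ran from 3 to 9 and 4 to 7 (0.437 to 0.768 and 0.0435 to 0.185). Of all genes 37.0% to 50.7%, 54.2% to 59.2%, 41.0% to 60.3%, 34.3% to 56.2% and 22.5% to 32.7% were called, in the same order. Mean shares of mtDNA mRNAs ran from 6.004% to 6.81%, 6.85% to 7.49%, 5.14% to 5.58% and 7.69% to 8.27% in adherent shCtrl, adherent shSigma, sphere shCtrl and sphere shSigma.

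Of the other scalings, total counts only moved the median of all genes most, from 0.0366 to 0.103 between adherent and sphere shCtrl cells, and the share of higher calls there from 51.1% to 58.3%. A share of the 13 mRNAs without ribosomal RNAs and a make-up with nuclear copies counted in were planned and not run separately, since neither kind of gene entered the sums. Adherent libraries varied more than sphere libraries, which limits what the adherent comparison could call.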
